A study of Homo sapiens with 12 samples.

Results

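The SR protein, TRA2 and hnRNP genes are genes of RNA-binding proteins that steer pre-mRNA splicing. They were taken by symbol (SRSF with a number, TRA2A or TRA2B, and HNRNP with letters or numbers, without the pseudogenes), which gave 39 of the 58735 genes in the deposited count table: 12 SRSF genes, 2 TRA2 genes and 25 HNRNP genes. The rule itself used no measured value, although it was set with earlier results of these data known, and 123 pseudogenes of these names were left out. The cells were 293T4A, that is human embryonic kidney 293T cells carrying a lentiviral vector in which doxycycline switches on 4EBP1-4A. This is a form of the translation inhibitor 4EBP1 in which several phosphorylated serines and threonines were replaced by alanine. The transduced cells had been sorted by GFP, and whether they derive from 1 clone is not given in the sources used here. Of 6 samples of cells, 3 received DMSO and 3 received doxycycline (2 mg/mL, for 12 h in the treatment protocol and 2 h in the text describing the series, while the results text of the study gives a longer time than either), and all were exposed briefly to cycloheximide before lysis. Each was measured by RNA-seq of total RNA and by ribosome footprinting (Ribo-seq), which gives 12 libraries. Both groups carry the vector and no cells without it were compared, so an effect of doxycycline itself and one of 4EBP1-4A cannot be told apart. The study calls the replicates biological, but the sources used here do not say how they were kept apart, and p-values measure the spread among these libraries.

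SR proteins bind exonic enhancers through RNA recognition motifs and recruit the spliceosome through a domain rich in arginine and serine repeats, which SRPK and CLK kinases phosphorylate. The hnRNP proteins coat nascent RNA, often act at silencer elements against SR proteins, and also serve mRNA export, stability and translation. Many genes of both families control their own level by splicing a poison exon into their mRNA, which sends it to nonsense-mediated decay (NMD).

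RNA-seq held 51519700 to 57824136 reads on genes with DMSO and 47862104, 45887231 and 21687906 with doxycycline in replicates 1, 2 and 3. Doxycycline replicate 3 stood apart. Of all its counts, with those outside genes, 88.4% were alignments to more than 1 place. This share was 54.9% to 62.3% with DMSO and 65.4% and 69.9% in the other doxycycline libraries. Whether a read can enter these counts more than once is not stated in the sources used here. Log2 fold changes are therefore given with all 6 libraries and with the 5 that remain without doxycycline replicate 3. Doxycycline replicates 1 and 2 also had a higher share than any DMSO library. With 5 libraries, treatment and this share therefore cannot be told apart either. EIF4EBP1, the gene of 4EBP1, was at 156 to 169 CPM with DMSO and at 260.0 to 281 CPM with doxycycline, so the induced gene followed the labels in every library. CPM, the unit used for levels, relates the reads of a gene to all gene reads of its library, here scaled by edgeR's TMM factors. Genes that mark the 293 line summed to 1080 to 1149 CPM with DMSO and 1149 to 1339 with doxycycline, most of it from VIM (770 to 825 CPM with DMSO and 817 to 923 with doxycycline). Of these 6 markers, LIN28B fell without doxycycline replicate 3 (102 to 119 CPM with DMSO and 88.1, 77.1 and 35.4 CPM with doxycycline) and NEFM rose (67.0 to 85.3 CPM with DMSO and 106, 113 and 175 CPM with doxycycline). Their part in the results was not tested. Markers of blood, liver, skin and fibroblasts summed to at most 24.2 CPM in any library, with KRT5 and KRT14 at 0 throughout. The highest of these sums was that of the fibroblast list in doxycycline replicate 3, from COL1A1 (24.0 CPM, against 8.37 to 10.3 with DMSO), and its part was not tested either.

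The SR and hnRNP mRNAs were mostly abundant, and 35 of the 39 genes had enough reads to be tested (at least 10 in at least 3 libraries). The remaining ones were the HNRNPC-like copies HNRNPCL1, HNRNPCL2, HNRNPCL3 and HNRNPCL4, with 26, 10, 1 and 0 RNA-seq reads over 6 libraries. With DMSO, 0.780% to 0.784% of the gene reads fell on these 39 genes, and 0.804%, 0.771% and 0.722% with doxycycline in replicates 1, 2 and 3. HNRNPU, whose product binds nuclear scaffold and RNA, alone supplied 15.3% of these reads at 54.5 CPM per kb of exon. Levels of different genes were compared only per kb of annotated exon, since a longer mRNA gives more reads. Annotated exon means the exon bases of all transcripts of a gene together, which can exceed the length of its mRNA. This was 22512 bases over 32 transcripts for HNRNPU and 2118 bases over 8 for HNRNPAB. The order of genes by this level thus also depends on the annotation.

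On the scale of CPM per kb, HNRNPAB had the highest DMSO level at 114 ± 1.45 (SD, n = 3), followed by SRSF2 at 103 ± 4.58 and HNRNPK at 85.6 ± 3.38. HNRNPF stood at 75.2 ± 3.21 and HNRNPC at 60.7 ± 1.73 on the same scale. HNRNPAB binds RNA and single-stranded DNA, SRSF2 (also called SC35) marks nuclear speckles, HNRNPK and HNRNPF bind C-rich and G-rich stretches, and HNRNPC binds runs of U. The ranges of the first 4 did not overlap with those of their neighbours in this order, whereas in the run HNRNPC, SRSF7, HNRNPH1, SRSF6, SRSF3 and HNRNPU each overlapped with the next. At the low end were SRSF12 at 3.67 ± 0.180, HNRNPUL2 at 3.65 ± 0.252 and HNRNPA1L2 at 0.985 ± 0.147 CPM per kb. The first 2 of these did not differ beyond their spread, and HNRNPA1L2 lay below both. HNRNPA1L2 is a copy of HNRNPA1 without introns, so its reads are uncertain. HNRNPA1 itself, one of the best known hnRNP genes, ranked low at 15.5 ± 0.842, and 75 pseudogenes bear its name (1426 RNA-seq reads in all, compared to 25780 on HNRNPA1). Because only uniquely aligned reads were counted, reads that HNRNPA1 shares with its copies are missing from this level. The annotated exons of HNRNPA1 also cover 6697 bases over 84 transcripts, and a longer exon length gives a lower level per kb.

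**Figure D1:**
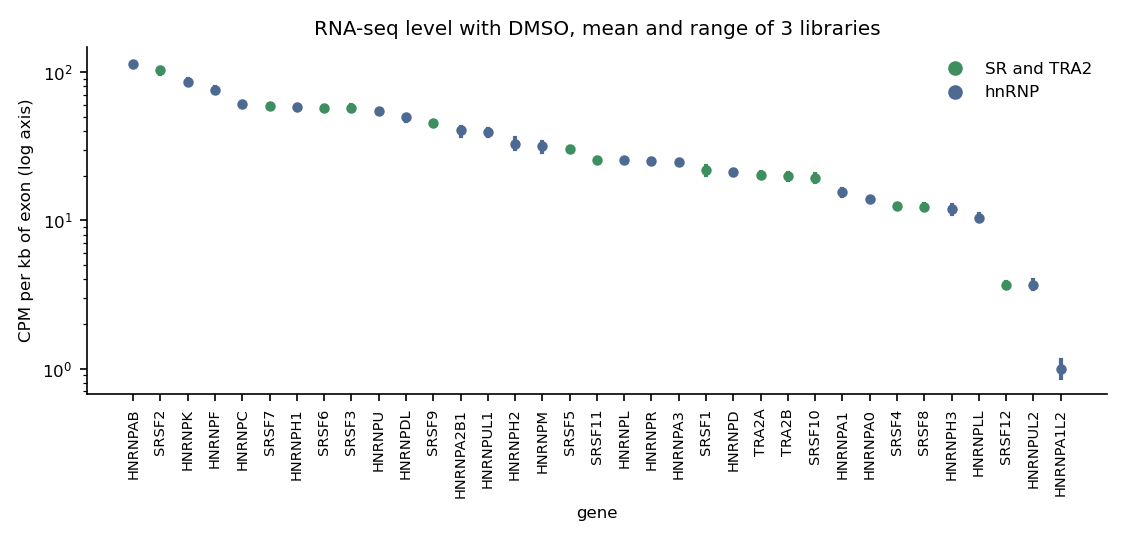
RNA-seq level of the 35 tested genes with DMSO in CPM per kb of annotated exon (log axis), from the highest to the lowest; points are means and bars the range of 3 libraries, green for SR and TRA2 genes and blue for hnRNP genes. Both families spread over the whole order, from HNRNPAB at 114 and SRSF2 at 103 to SRSF12 at 3.67 and HNRNPA1L2 at 0.985.

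With all 6 libraries, none of the 35 genes passed edgeR's quasi-likelihood test in either direction, and neither did any of the 20552 genes tested (0.0% lower and 0.0% higher at a Benjamini-Hochberg adjusted p under 0.05). DESeq2's Wald test and edgeR's likelihood ratio test also called 0 of the 35. Over all genes the first of these called 2 lower and 1 higher, and the second called 7 and 5. At an unadjusted p under 0.05, the quasi-likelihood test gave 0 lower members, against 4.13% of all genes. It gave 1 higher member, HNRNPM, against 9.58%. The log2 fold change, doxycycline over DMSO, was below 0 for 26 of the 35 genes, compared to 53.7% of all genes. The median was -0.21, and over all genes it was -0.035. In 15 of the 35 all doxycycline libraries lay below all DMSO libraries (20.8% of all genes), and in 5 they lay above (17.7%).

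Doxycycline replicate 3 held the largest of these differences. It was the lowest of the 6 libraries for 27 of the 35 genes, compared to 46.2% of all genes. Relative to the DMSO mean, the median log2 level of the 35 genes was -0.042, -0.13 and -0.62 in doxycycline replicates 1, 2 and 3, and between -0.037 and 0.023 in the DMSO libraries. Over all genes tested the same medians were -0.010, -0.0063 and -0.12 with doxycycline. The part that the many multiple alignments of that library play in this was not tested. From bulk RNA, fewer cells with an mRNA and less of it per cell cannot be told apart.

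Without doxycycline replicate 3, 2 of the 35 genes fell, HNRNPH2 and TRA2B, against 4.06% of the 20459 genes tested, and 1 rose, HNRNPM, against 3.59%. At an unadjusted p under 0.05, 11 were lower, compared to 13.6% of all genes, and 2 were higher, compared to 12.1%. Of the 35, 23 had a log2 fold change below 0 (51.3% of all genes), with a median of -0.090, and -0.0081 over all genes. The groups did not overlap for 15 genes that were lower (22.6% of all genes) and 7 that were higher (20.9%). Shares of genes called were thus near those of the whole table, while the share of unadjusted p-values was higher for lower members and smaller for higher ones. Leaving out DMSO replicate 1 as well left 0 members called, and 272 lower and 218 higher of all 20002 genes. Without DMSO replicate 2 the fit called 6 lower members (1550 of all 19984 genes), and without DMSO replicate 3 it called 1 (410 of 20109). In each of these 2 fits 1 member was called higher (1426 and 403 of all genes). Leaving out doxycycline replicate 1 or 2 as well left 1 doxycycline library, with a median of the members of -0.13 or -0.042. By share of multiple alignments, from low to high, the order was DMSO replicates 1, 3 and 2, then doxycycline replicates 1, 2 and 3. In this order the levels of HNRNPH2 and TRA2B went down and that of HNRNPM went up at each step. The same held for genes that were not called, such as SRSF10 and HNRNPK (down) and HNRNPUL1 (up). Whether this share played a part in the calls was not tested.

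**Figure D2:**
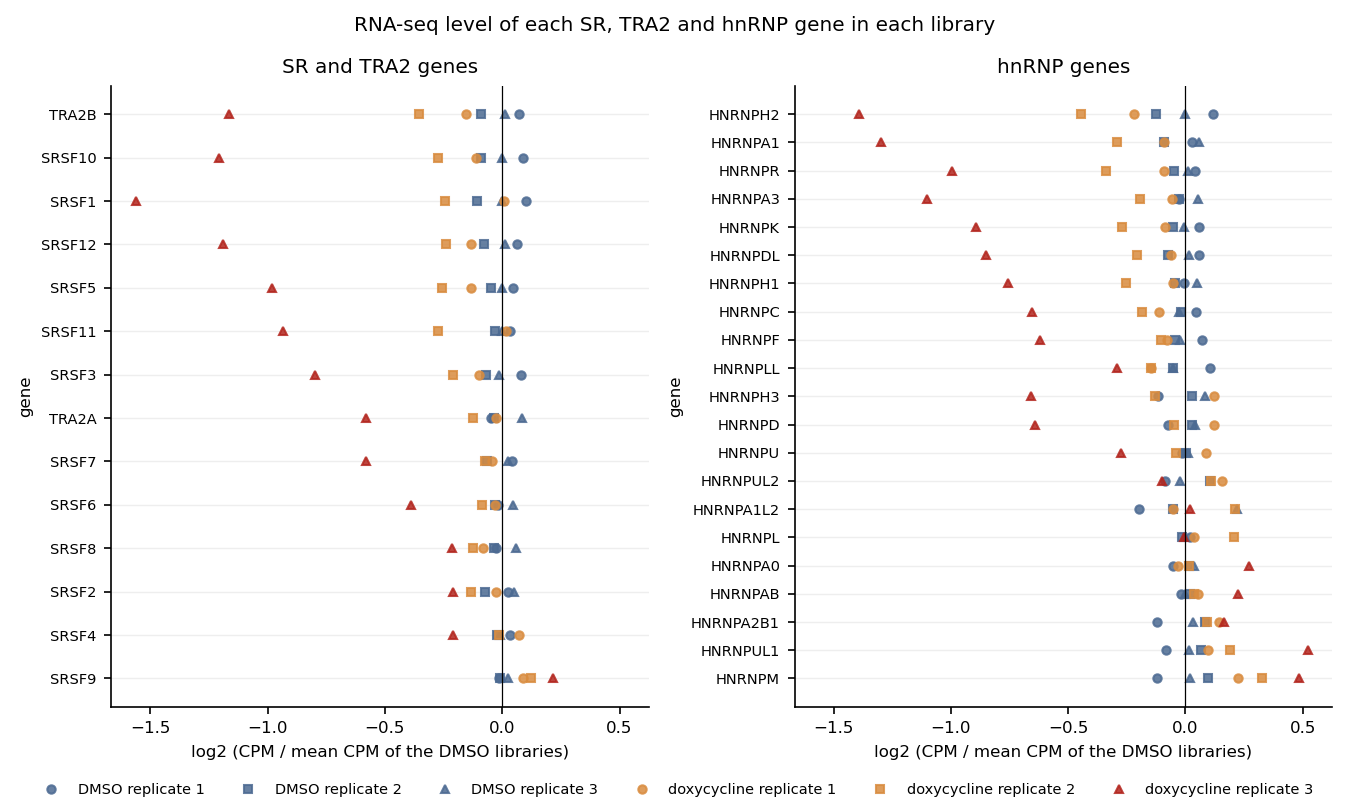
Level of each tested gene in each of the 6 RNA-seq libraries as log2 of its CPM over the mean CPM of the DMSO libraries (horizontal axis), SR and TRA2 genes on the left and hnRNP genes on the right, each panel ordered by the log2 fold change over 6 libraries. Doxycycline replicate 3 (red triangles) lay lowest for 27 of the 35 genes, and doxycycline replicates 1 and 2 (orange) lay near the DMSO libraries (blue).

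Among the 12 SR genes, none was called. With all libraries, 11 of the 12 had a log2 fold change below 0, between -0.46 and 0.14 with a median of -0.27. Without doxycycline replicate 3, 10 of the 12 were below 0 and the median was -0.11. SRSF10, an SR protein whose dephosphorylation turns it into a splicing repressor, had 242, 213 and 227 CPM with DMSO and 211, 188 and 98.5 CPM with doxycycline in replicates 1, 2 and 3. Every doxycycline library was below every DMSO library, although doxycycline replicate 1 and DMSO replicate 2 were close, and the log2 fold change of SRSF10 was -0.46 (SE 0.26) with 6 libraries and -0.19 (SE 0.070) with 5. Its adjusted p with 5 libraries was 0.095 (edgeR's quasi-likelihood test, adjusted by Benjamini-Hochberg). Over the settings tried for 5 libraries it ran from 0.0072, with the replicate number as a block, to 0.66, and it also passed the threshold when DMSO replicate 2 (0.0316) or doxycycline replicate 1 (0.0215) was also left out. With that block, DMSO replicate 3 is alone in its block, so the change rests on replicates 1 and 2 only.

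SRSF12, the close relative of SRSF10 and the scarcest of the SR mRNAs, was measured at 17.4, 15.8 and 16.8 CPM with DMSO and at 15.2, 14.1 and 7.30 CPM with doxycycline. Its groups did not overlap either, with log2 fold changes of -0.44 (SE 0.25) and -0.18 (SE 0.088) with and without the third doxycycline library. SRSF1, the founding SR protein and a known oncogene, is named here because of its values and not by the rule for named genes. It had the steepest drop in doxycycline replicate 3, with 135, 117 and 126 CPM with DMSO and 127, 106 and 42.7 CPM with doxycycline. That last library held 33.9% of the DMSO mean, while doxycycline replicate 1 was above DMSO replicates 2 and 3, so the groups overlapped.

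SRSF2, the SR mRNA with the highest level per kb, had 310.1, 289.8 and 316 CPM with DMSO and 299, 278 and 264 CPM with doxycycline, and the groups overlapped. SRSF9, a small SR protein related to SRSF1, had 178, 179 and 183 CPM with DMSO and 192, 196 and 209.6 CPM with doxycycline. It was the SR gene with the largest positive change, and all its doxycycline libraries were above all DMSO libraries, with log2 fold changes of 0.14 (SE 0.092) and 0.10 (SE 0.061), which passed neither test. Exons of SRSF9 share 1725 bases with GATC on the other strand, and whether the counting used strand is not stated, so reads of the pair cannot be told apart there.

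TRA2A and TRA2B are the human homologues of the fly splicing factor Transformer-2, which binds GAA-rich enhancers together with SR proteins. TRA2B fell without doxycycline replicate 3. Its level was 272, 243 and 261 CPM with DMSO and 233, 202 and 116 CPM with doxycycline in replicates 1, 2 and 3. All doxycycline libraries were below all DMSO libraries, and replicate 3 was at 44.6% of the DMSO mean. The log2 fold change was -0.50 (SE 0.24, adjusted p = 0.326) with 6 libraries and -0.25 (SE 0.071, adjusted p = 0.0383) with 5 (edgeR's quasi-likelihood test, adjusted by Benjamini-Hochberg). Over the settings tried for 5 libraries the adjusted p ran from 0.0013 (with the replicate number as a block) to 0.51, and the call was lost with library totals and without DMSO replicate 1, DMSO replicate 3 or doxycycline replicate 2. TRA2A was at 68.4, 69.0 and 74.9 CPM with DMSO and at 69.4, 65.0 and 47.4 CPM with doxycycline, and its groups overlapped.

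Of the hnRNP genes, 13 of 21 tested had a log2 fold change below 0 with all libraries, with a median of -0.19, and 11 of 21 without doxycycline replicate 3, with a median of -0.0071. The subfamilies differed in their medians. All 4 genes of the hnRNP F/H group, whose proteins bind runs of G, were below 0 with 6 libraries (median -0.29) and 3 of 4 with 5 libraries (median -0.12). For the A/B and D group, 4 of 8 were below 0 in both fits, with medians of -0.042 and 0.016. The 3 genes of the hnRNP U group had medians of 0.061 and 0.13. These groups were set side by side as a description and the differences between them were not tested.

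HNRNPH2 had the largest negative log2 fold change of the 35 genes in both fits. It encodes a protein nearly identical to that of HNRNPH1 and lies on chrX:101408222-101414133 on the + strand of GRCh38. Its level was 81.9, 69.3 and 75.5 CPM with DMSO and 65.0, 55.6 and 28.8 CPM with doxycycline. No doxycycline library reached the lowest DMSO library, and replicates 1 and 2 together averaged 79.8% of the DMSO mean. The log2 fold change was -0.60 (SE 0.27, adjusted p = 0.326) with 6 libraries and -0.33 (SE 0.081, adjusted p = 0.0238) with 5 (edgeR's quasi-likelihood test, adjusted by Benjamini-Hochberg), so HNRNPH2 fell in the second fit only. Its adjusted p under the settings tried for 5 libraries ran from 0.00015 (with the replicate number as a block) to 0.41 and missed the threshold without DMSO replicate 1 or doxycycline replicate 2. Exons of HNRNPH2 share 362 bases with the read-through gene RPL36A-HNRNPH2 on the same strand.

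The sequences just upstream of HNRNPH2 and TRA2B are shown as parts of the promoters of the genes that fell. They are from RefSeq (GRCh38.p14) and printed 5′ to 3′ on the gene's strand, and they end at the outermost exon of the GENCODE 44 annotation. They cover chrX:101408122-101408221 (+) for HNRNPH2 and chr3:185938104-185938203 (-) for TRA2B. Capitals mark the matches to any of the motifs CCGGAAGT (ETS factors), CCAAT (NF-Y), GGGCGG (SP1), TATAAA and CACGTG (the E-box of MYC and USF), searched on both strands.
HNRNPH2: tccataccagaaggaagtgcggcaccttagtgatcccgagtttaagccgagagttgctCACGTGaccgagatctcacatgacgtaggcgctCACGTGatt
TRA2B: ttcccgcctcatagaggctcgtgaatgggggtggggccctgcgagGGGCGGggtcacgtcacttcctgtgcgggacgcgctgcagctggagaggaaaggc

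HNRNPH2 has CACGTG matches whose nearest base lies 4 and 37 bases before its RefSeq start, where its GENCODE gene also begins. HNRNPM, which rose, has 1 at 37 bases. The RefSeq start of HNRNPM lies 208 bases inside its GENCODE gene, so that match is inside this gene. The only match of TRA2B in the window of 250 bases was a GGGCGG, 139 bases before its RefSeq start. That start lies 89 bases inside the GENCODE gene. CACGTG was added to the search after these sequences had been seen. Of the 35 SR and hnRNP genes with a RefSeq promoter, 6 (17.1%) held CACGTG in the 250 bases before the start, compared to 6.49% of 27305 promoters. These 35 are not the 35 tested genes, since they include HNRNPCL1, HNRNPCL2 and HNRNPCL4 and not HNRNPA1, SRSF2 and TRA2A. The 6 with CACGTG include HNRNPH2 and HNRNPM. The 27305 promoters were not limited to genes tested in RNA-seq, so the shares compare unlike sets. CCAAT was present in 17 (48.6%, compared to 33.0%), GGGCGG in 21 (60%, compared to 42.3%), CCGGAAGT in 3 (8.57%, compared to 3.64%) and TATAAA in 5 (14.3%, compared to 11.1%). A match of letters is no evidence that a factor binds, and the 2 genes with CACGTG named above changed in opposite directions.

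HNRNPM was the 1 gene that rose. Its product binds GU-rich RNA and is known for its part in splicing during the epithelial to mesenchymal transition, and the gene lies on chr19:8444767-8489114 on the + strand of GRCh38. It had 162, 189 and 179 CPM with DMSO and 206, 221 and 247 CPM with doxycycline in replicates 1, 2 and 3. All 3 doxycycline libraries were above all DMSO libraries, and here replicate 3 was the highest of the 6. The log2 fold change was 0.35 (SE 0.11, adjusted p = 0.326) with 6 libraries and 0.27 (SE 0.070, adjusted p = 0.0260) with 5 (edgeR's quasi-likelihood test, adjusted by Benjamini-Hochberg). Under the settings tried for 5 libraries the adjusted p of HNRNPM ran from 0.00049 (with the replicate number as a block) to 0.34 and missed the threshold without DMSO replicate 1 or doxycycline replicate 2. For HNRNPM, HNRNPH2 and TRA2B alike, the exact permutation test (two-sided) on 3 against 3 libraries gave p = 0.1, the smallest that this design allows.

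Next to HNRNPM, the largest positive change was that of HNRNPUL1, a relative of HNRNPU. HNRNPUL1 had 249, 276 and 266 CPM with DMSO and 282, 301 and 378 CPM with doxycycline, with no overlap between the groups. Its log2 fold change was 0.28 (SE 0.13) with 6 libraries and 0.14 (SE 0.065, adjusted p = 0.169, edgeR's quasi-likelihood test, adjusted by Benjamini-Hochberg) with 5. HNRNPUL2 was at 18.5, 21.2 and 19.4 CPM with DMSO and at 22.0, 21.2 and 18.4 CPM with doxycycline, which overlapped. It shares 2391 of its 5401 exon bases with the read-through gene HNRNPUL2-BSCL2, so its low level is uncertain. HNRNPU was at 1217 to 1236 CPM with DMSO and at 1303, 1193 and 1015 CPM with doxycycline, on both sides of the DMSO range.

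HNRNPA1 and HNRNPA2B1, the core A/B proteins that bind UAGG motifs, had changes of opposite sign. HNRNPA1 had 106, 97.6 and 108 CPM with DMSO and 97.5, 85.1 and 42.3 CPM with doxycycline. HNRNPA2B1 had 469, 540.1 and 522 CPM with DMSO and 563, 543 and 572 CPM with doxycycline. For each the groups did not overlap, but doxycycline replicate 1 of HNRNPA1 and doxycycline replicate 2 of HNRNPA2B1 lay close to DMSO replicate 2. With 6 libraries the log2 fold change of HNRNPA1 was -0.47 (SE 0.28) and that of HNRNPA2B1 was 0.13 (SE 0.097), and without doxycycline replicate 3 they were -0.19 (SE 0.072) and 0.12 (SE 0.067). None of these passed the test. The adjusted p of HNRNPA1 with 5 libraries was 0.108 and ran from 0.016 to 0.72 over the settings, under the threshold when DMSO replicate 2 (0.0383) or doxycycline replicate 1 (0.0161) was also left out and with the replicate number as a block (0.0198; edgeR's quasi-likelihood test, adjusted by Benjamini-Hochberg).

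HNRNPAB had 238, 244 and 241 CPM with DMSO and 250.3, 247 and 281 CPM with doxycycline. All its doxycycline libraries were above the DMSO range, by a small margin in replicate 2, and its log2 fold change was 0.11 (SE 0.097) with 6 libraries and 0.044 (SE 0.060) with 5. HNRNPA1L2 had 1.15, 1.28 and 1.54 CPM with DMSO and 1.28, 1.53 and 1.34 CPM with doxycycline, and no difference was detectable at this depth. For reference, 3 reads corresponded to 0.0519 to 0.138 CPM in these libraries.

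HNRNPC, HNRNPF and HNRNPK, 3 of the 5 genes with the highest level per kb, gave lower values with doxycycline. HNRNPC was at 457, 436 and 435 CPM with DMSO and at 409, 389 and 281 CPM with doxycycline. HNRNPF was at 258, 238 and 242 CPM with DMSO and at 233, 229 and 160.4 CPM with doxycycline. HNRNPK was at 508, 470.2 and 485 CPM with DMSO and at 459, 405 and 263 CPM with doxycycline. None of the 3 overlapped between groups, and none passed the test, with log2 fold changes of -0.30 (SE 0.15), -0.25 (SE 0.16) and -0.38 (SE 0.19) over 6 libraries. Without doxycycline replicate 3 these were -0.15 (SE 0.062), -0.090 (SE 0.063) and -0.18 (SE 0.067), and the adjusted p was 0.135, 0.388 and 0.107 (edgeR's quasi-likelihood test, adjusted by Benjamini-Hochberg). Over the settings it ran from 0.022 to 0.64 for HNRNPC, from 0.15 to 0.84 for HNRNPF and from 0.013 to 0.73 for HNRNPK. HNRNPC passed the threshold with the replicate number as a block, and HNRNPK with that block and without doxycycline replicate 1.

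**Figure D3:**
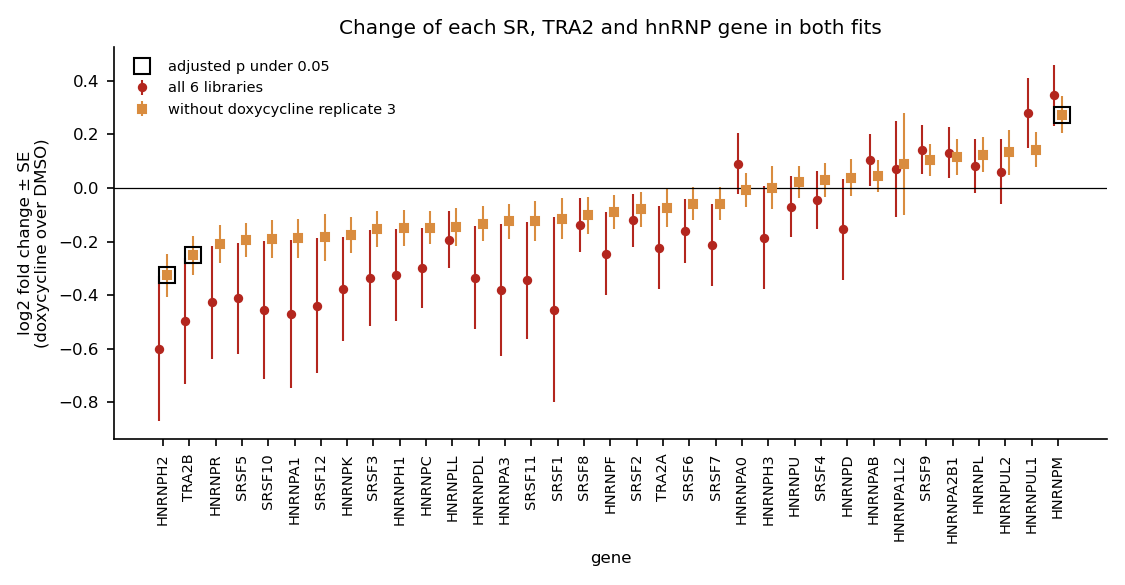
log2 fold change of the 35 tested genes, doxycycline over DMSO, with a standard error derived from the F statistic, in edgeR's fit of all 6 libraries (red circles) and without doxycycline replicate 3 (orange squares), ordered by the second. Open squares mark an adjusted p under 0.05, reached by HNRNPH2 (-0.33), TRA2B (-0.25) and HNRNPM (0.27) without that library and by no gene with it.

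The ratio of 2 genes within a library does not depend on the scaling between libraries. It can still follow other differences between them. The pairs below are close relatives or opposed genes picked after the values were seen, so their ratios are a description without a test. TRA2B gave 3.98, 3.53 and 3.49 reads per TRA2A read with DMSO and 3.35, 3.11 and 2.44 with doxycycline. HNRNPH2 gave 0.149, 0.130 and 0.132 reads per HNRNPH1 read with DMSO and 0.122, 0.120 and 0.0880 with doxycycline. HNRNPA1 gave 0.226, 0.181 and 0.208 reads per HNRNPA2B1 read with DMSO and 0.173, 0.157 and 0.0739 with doxycycline. In these pairs every doxycycline library had a smaller ratio than every DMSO library. In the order by share of multiple alignments, HNRNPH2 over HNRNPH1 and HNRNPA1 over HNRNPA2B1 went down at each step, unlike TRA2B over TRA2A. The part of this share in the ratios was not tested.

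The ratio of HNRNPL, which binds CA repeats, to its paralogue HNRNPLL went the other way, with 2.54, 2.77 and 2.79 with DMSO and 3.06, 3.44 and 3.29 with doxycycline. That of HNRNPM to HNRNPR, a relative of SYNCRIP, was 0.725, 0.897 and 0.817 with DMSO and 1.01, 1.28 and 2.26 with doxycycline. HNRNPH2 over HNRNPF was 0.317, 0.291 and 0.312 with DMSO and 0.278, 0.242 and 0.179 with doxycycline, with no overlap. By share of multiple alignments, HNRNPM over HNRNPR went up and HNRNPH2 over HNRNPF went down at each step, unlike HNRNPL over HNRNPLL. The ratios of SRSF1 to SRSF9 and of HNRNPUL1 to HNRNPU overlapped between groups, but doxycycline replicates 2 and 3 stood outside the DMSO range in both. SRSF1 over SRSF9 was 0.758, 0.654 and 0.689 with DMSO and 0.661, 0.544 and 0.204 with doxycycline. HNRNPUL1 over HNRNPU was 0.205, 0.224 and 0.215 with DMSO and 0.217, 0.252 and 0.373 with doxycycline. The last 2 pairs kept close to their DMSO ratio in all libraries. SRSF10 gave 13.7 ± 0.218 (SD, n = 3) reads per SRSF12 read with DMSO and 13.6 ± 0.270 with doxycycline, and SRSF2 gave 5.76 ± 0.183 reads per SRSF8 read with DMSO and 5.83 ± 0.134 with doxycycline. SRSF10 and SRSF12 thus had nearly equal shares of their DMSO level in doxycycline replicate 3, at 43.3% and 43.8%.

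**Figure D4:**
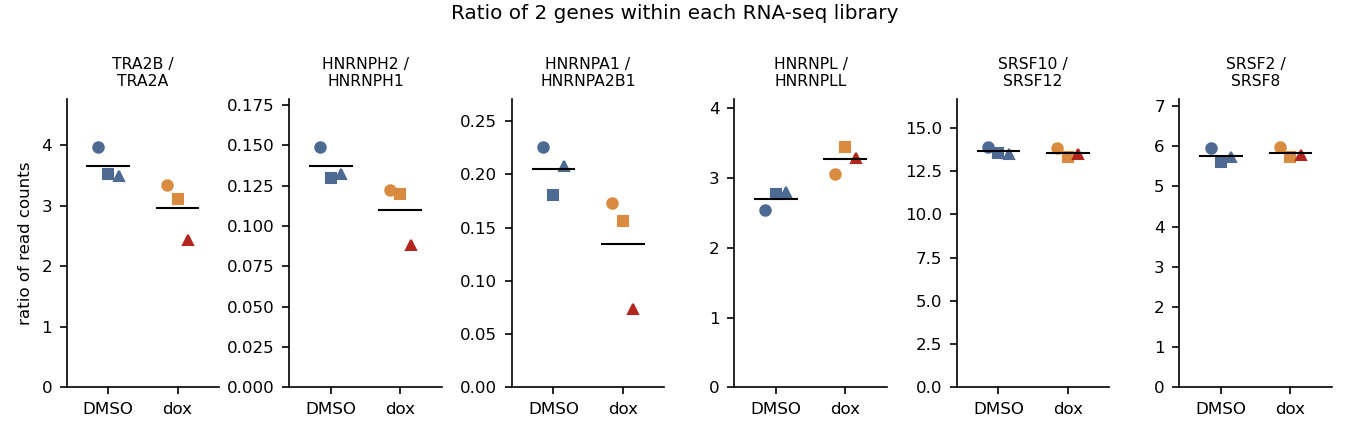
Ratio of the read counts of 2 genes within each RNA-seq library for 6 pairs, DMSO on the left and doxycycline on the right of each panel (vertical axes start at 0; circles, squares and triangles are replicates 1, 2 and 3, red is doxycycline replicate 3, and lines are means of 3 libraries). TRA2B over TRA2A, HNRNPH2 over HNRNPH1 and HNRNPA1 over HNRNPA2B1 were lower with doxycycline, HNRNPL over HNRNPLL was higher, and SRSF10 over SRSF12 and SRSF2 over SRSF8 overlapped.

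The annotation lists transcripts that end in NMD for 28 of the 35 tested genes (80.0%), compared to 45.9% of the 14262 tested protein-coding genes, and transcripts with a retained intron for 27 (77.1%, compared to 58.3%). All 12 SR genes and both TRA2 genes have an NMD transcript, and 14 of the 21 hnRNP genes do. The 3 called genes differ here, since GENCODE 44 gives HNRNPH2 1 transcript in all, which is coding, while TRA2B has 1 NMD transcript of 15 and HNRNPM has 1 of 16. The counts are sums over all exons of a gene, so the productive and the NMD forms cannot be told apart. Exons of 11 of the 35 genes overlap another gene on the same strand and exons of 12 overlap one on the other strand, such as HNRNPA3 with NFE2L2 (3509 bases) and HNRNPU with COX20 (3502 bases).

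Proteins that phosphorylate, import or accompany SR proteins were followed through 20 further genes, all of which were tested. None was called with 6 libraries by edgeR's quasi-likelihood test, and 11 of 20 had a log2 fold change below 0 with a median of -0.14. Without doxycycline replicate 3, 0 of 20 fell (4.06% of all genes) and 1 rose (3.59%), which was SRRM2, a scaffold of nuclear speckles. SRRM2 was at 717, 907 and 850.0 CPM with DMSO and at 1005, 1154 and 1367 CPM with doxycycline. Its groups did not overlap, and its log2 fold change was 0.51 (SE 0.15, adjusted p = 0.326) with 6 libraries and 0.39 (SE 0.082, adjusted p = 0.0133) with 5 (edgeR's quasi-likelihood test, adjusted by Benjamini-Hochberg). The kinase SRPK1 was at 286 to 293 CPM with DMSO and at 301, 280.2 and 193 CPM with doxycycline, which overlapped.

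Of 30 other splicing regulators, 28 were found under their own names, the other two being older names of HNRNPLL and HNRNPDL. None was called with 6 libraries. Without doxycycline replicate 3, 3 fell and 3 rose, against 4.06% and 3.59% of all genes. The first were the muscleblind genes MBNL2 (log2 fold change -0.48, SE 0.10) and MBNL1 (-0.30, SE 0.070) and TIA1 (-0.25, SE 0.076), which binds U-rich sequence behind weak 5′ splice sites. Those that rose included KHSRP (0.39, SE 0.075) and PTBP1 (0.23, SE 0.063), a repressor that binds CU-rich sequence. With 6 libraries these changes were -0.75 (SE 0.29) for MBNL2, -0.55 (SE 0.24) for MBNL1, -0.55 (SE 0.29) for TIA1, 0.59 (SE 0.17) for KHSRP and 0.30 (SE 0.10) for PTBP1, and none passed the test. TIA1 and PTBP1 are named beyond the rule, which allowed 4 genes. MBNL2 had 24.9, 21.2 and 26.4 CPM with DMSO and 19.1, 15.7 and 7.97 CPM with doxycycline. KHSRP had 317, 382 and 357 CPM with DMSO and 434, 485 and 673 CPM with doxycycline. As for HNRNPH2 and HNRNPM, doxycycline replicate 3 was the lowest library for MBNL2 and the highest for KHSRP.

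Ribo-seq gave little on these genes. The 6 libraries held 107 reads on the 39 genes, compared to 2175284 in RNA-seq, and 22 of the 39 had no footprint read. Translational efficiency (TE, the Ribo-seq level over the RNA-seq level) could be tested for 3 genes with at least 10 reads in each assay. HNRNPA2B1 had 1, 7 and 0 footprint reads with DMSO and 10, 2 and 1 with doxycycline. SRSF7 had 0, 8 and 0 with DMSO and 3, 0 and 0 with doxycycline, and HNRNPAB had 1, 6 and 1 with DMSO and 0, 2 and 2 with doxycycline. Most of the DMSO reads came from replicate 2, and the groups overlapped for all 3 genes. The log2 changes in TE were 0.82 (SE 1.55), -0.89 (SE 1.90) and -0.78 (SE 1.35), and 0 of 3 were called lower or higher by edgeR's quasi-likelihood test, against 0.15% and 0.0% of the 1334 genes tested. At an unadjusted p under 0.05, 0 of the 3 and 178 lower and 100 higher of all genes were found. DESeq2's Wald test also called 0 of the 3, against 26 lower and 26 higher of all genes tested. A change in the translation of the SR and hnRNP mRNAs was not detectable at this depth.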

How the data were processed

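RNA-seq and Ribo-seq were analysed in 293T4A cells treated with DMSO or doxycycline (3 libraries per group and assay). The deposited counts are raw reads per gene: the authors removed linker and ribosomal sequence from footprint reads, aligned with STAR (version not given in the sources used here) and kept uniquely aligned exonic reads. The methods name GRCh38 for alignment and GRCh37 for annotation, and the labels GRCh37 and Ensembl 75. Some identifiers in the table belong to GRCh38 annotations, and 58207 (99.1%) matched GENCODE 44, which gave exon lengths and coordinates. Rows without a gene, 69.1% to 94.1% of all RNA-seq counts, stayed out of library sizes. The authors' own TE columns (p-values and ratios) were not used.

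Changes were tested with edgeR 4.0.16 (limma 3.58.1, R 4.3.3), using TMM factors, the quasi-likelihood test and Benjamini-Hochberg adjustment over all genes that reached 10 reads in 3 or more libraries. The TE change was the assay-by-treatment term of 1 model, fitted where each assay had 10 or more reads for the gene. Levels and figures were computed with Python 3.11.15. Tests were first tried on simulated counts. Named members were those called, the 4 largest changes each way over 6 libraries, and the 5 highest and 3 lowest per kb. From each further list, up to 4 called genes were named, and 1 of them is not reported here. Members and lists were chosen with earlier results of these data known. Alternatives covered scaling, filter, test (DESeq2 1.42.0), replicate block and each replicate left out. Counts of proteins' repeats were not made, since no protein sequences were at hand.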

Additional observations from a re-analysis of the deposited data

How the results depend on the processing

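With all 6 libraries, leaving out 1 library in turn gave 0 to 2 members called lower and 0 to 1 called higher, the highest without doxycycline replicate 3, and no other setting called any. Library totals in place of TMM factors moved the median log2 fold change of all genes from -0.035 to 0.097, and that of the members from -0.21 to -0.084. Relative to all genes, the members' median was -0.18 under both. Library totals turned SRSF2 to 0.020. HNRNPA1L2 turned to -0.021 without DMSO replicate 1 and to -0.017 without doxycycline replicate 2 (range over single libraries left out -0.021 to 0.19), and, with doxycycline replicate 3 also left out, to -0.00019 and -0.046 (range -0.046 to 0.22).

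Without doxycycline replicate 3, DESeq2's Wald test called 3 members lower and 1 higher (1054 and 996 of all genes). Library totals called 1 member lower and gave a median of -0.026. The split of all calls was 831 lower to 735 higher with TMM and 339 to 1442 with library totals. Leaving out 1 further library gave 0 to 10 members called lower and 0 to 1 called higher, with 0 lower without DMSO replicate 1 or doxycycline replicate 2. Over all genes, calls went down to 16 lower and 6 higher without doxycycline replicate 2 and to 272 and 218 without DMSO replicate 1, and up to 1550 and 1426 without DMSO replicate 2 and 1764 and 1360 without doxycycline replicate 1. DMSO replicate 3 left out gave 410 and 403.

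The replicate numbers do not pair the cultures in the labels, and deviations of same-numbered DMSO and doxycycline libraries correlated at 0.457, -0.444 and 0.0273. Without doxycycline replicate 3, DMSO replicate 3 is alone in its block, so the blocked change rests on replicates 1 and 2 only. With a replicate block, the fit without doxycycline replicate 3 called 10 members lower and 2 higher (2497 and 1966 of all genes), which besides the 3 genes called without it were HNRNPA1, HNRNPC, HNRNPK, HNRNPLL, HNRNPR, SRSF3, SRSF5 and SRSF10 (lower) and HNRNPUL1 (higher), and the fit of 6 libraries called 0. In TE, the value of HNRNPA2B1 turned to -0.63 without doxycycline replicate 1 and reached 2.99 without DMSO replicate 2. DESeq2's Wald test called 26 genes lower and 26 higher in TE, compared to 2 and 0. Depth limits the TE of all 39 genes, and RNA-seq below 3 reads.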
